A study of Homo sapiens with 6 samples.

Results

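The proteasome genes of U87 cells were read from a table of gene expression, and their RNA was compared between cells with and without silencing of Caspase-8. Members were the rows whose symbol begins with PSMA, PSMB, PSMC, PSMD, PSME, PSMF or PSMG followed by a number. Of 23290 rows, 49 met this rule by their letters. PSMC3IP, which encodes a cofactor of homologous recombination and no proteasome subunit, matched by letters alone and was kept apart, leaving 48 proteasome genes. PSMB8, PSMB9, PSMB10, PSME1 and PSME2, which encode the interferon-inducible subunits and activator, were described apart from the other 43. FPKM is the number of fragments scaled by transcript length and by the mapped fragments of the library, and a mean of 1 or more over the 6 libraries was needed for testing, and 46 of the 48 passed, among 11598 genes in all. The 2 that did not pass are tissue-restricted forms: PSMA8, an alpha subunit of the testis, was listed at 0 in every library, and PSMB11, a beta subunit of the thymus, was listed at 0.0742 FPKM in shCTR 2 and at 0 in the other 5.

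U87 is an established human glioblastoma line, grown here in DMEM with serum. Control cultures (shCTR, 3 libraries) had received a scramble vector by retrovirus, and silenced cultures (shC8, 3 libraries) the shC8 vector by the same route, so both groups share the cell line, the medium and a retroviral infection. The libraries were stranded total RNA after ribosomal depletion, and no source used here gives the hairpin sequence or the number of clones or infections. The design text calls the samples biological replicates but leaves the separation of cultures unstated; p-values therefore reflect the spread among these libraries alone, which may be technical. The RNA is from bulk culture, where a difference in how many cells express a gene and one in RNA per cell cannot be told apart.

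The proteasome degrades proteins tagged with ubiquitin. Its 20S core is a stack of alpha and beta rings with the proteolytic sites on beta subunits, and its 19S cap holds a ring of ATPases that unfolds substrates and a lid that removes ubiquitin. Interferon signalling induces replacement beta subunits, which form the immunoproteasome, and the PA28 activator, and both shape the peptides presented on class I molecules. Transcription of the standard subunits is coordinated by NFE2L1, and NFE2L2 adds to it under oxidative stress.

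CASP8, the silenced gene, had 15.1, 14.9 and 13.4 FPKM in the 3 shCTR libraries, and the 3 shC8 libraries had 4.39, 4.46 and 4.44. Of the 8 markers fixed for this line, VIM, CD44, S100A6 and NES were expressed. CD44 was at 73.3% of the control in shC8 (limma adjusted p = 0.0131) and NES at 159% (0.0293), and VIM and S100A6 did not pass, while GFAP, S100B, SOX2 and OLIG2, which mark astrocytes and neural progenitors, had means under 2 FPKM. Immune cells, the usual site of constitutive immunoproteasome, left little trace: 8 of 9 immune markers had a mean under 2 FPKM and 4 were at 0 in every library. Summed immune markers, almost entirely CD68, which tumour lines can express, ranged from 149.8 to 157.9 FPKM in shCTR and from 137.0 to 153.2 in shC8. FPKM columns summed to between 489055 and 516634, and the absolute depth is unknown.

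Proteasome genes were expressed in all libraries and differed widely in level. Member means ran from 7.35 to 415 FPKM, a span of 56.5-fold. FPKM is scaled by transcript length, so levels can be compared between genes, with the reserve that an assembler divides shared reads. Among the 7 alpha subunits the lowest was PSMA5 (47.2, 48.5 and 49.3 FPKM in shCTR, and 54.4, 45.97 and 48.2 in shC8) and the highest was PSMA7 (213, 219 and 205, then 230, 204 and 207). Subunits of the alpha ring are present in equal number in the particle, yet their RNA levels spanned 4.35-fold. Among the constitutive beta subunits the lowest was PSMB2 (58.6, 52.9 and 54.2 FPKM in shCTR, and 66.8, 57.0 and 55.0 in shC8) and the highest was PSMB1 (453, 422 and 413, then 436, 372 and 398). None of these 4 genes passed the test, and their groups overlapped.

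Regulatory genes covered a wider range. The 14 non-ATPase genes ran from PSMD5, a chaperone of base assembly, at a mean of 19.8 FPKM to PSMD8, a lid subunit, at 272. The ATPases lay closer together, from PSMC5 at 59.9 to PSMC1 at 153 FPKM. Least abundant were PSMG4, an assembly chaperone, at 7.23, 7.98 and 6.67 FPKM in shCTR and 9.03, 6.26 and 6.92 in shC8, and PSME4, which encodes the activator PA200, at 9.72, 9.73 and 10.5 against 10.0, 10.4 and 13.0. PSMF1, an inhibitor that binds the core, was listed at 12.3, 12.3 and 12.6 against 12.9, 11.4 and 11.8 FPKM. The spread between libraries was small beside these ranges, with a median coefficient of variation over the 46 genes of 4.43% in shCTR and 8.70% in shC8.

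**Figure D1:**
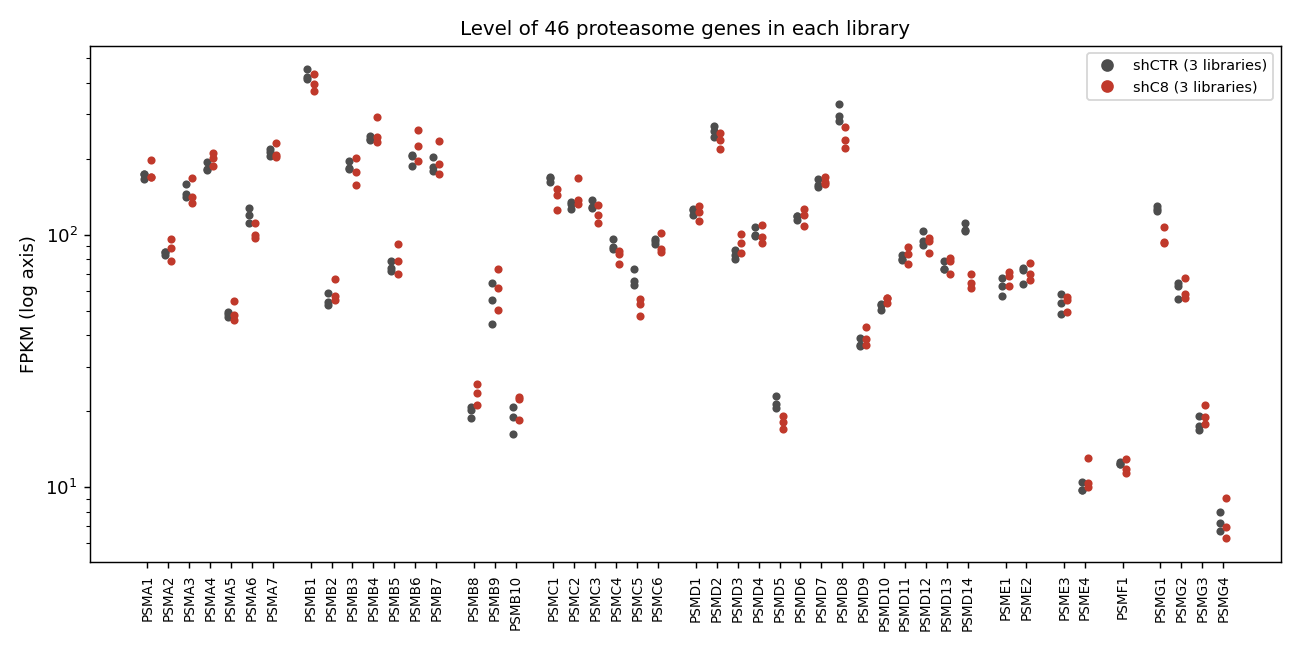
FPKM on a log axis for the 46 tested proteasome genes, 1 point per library, shCTR in grey and shC8 in red, grouped from left to right into alpha, constitutive beta, induced beta, ATPase, non-ATPase, PA28, other activator, inhibitor and chaperone genes. The levels span 56.5-fold between genes, and the 3 shC8 points of PSMD14 and PSMG1 lie below the 3 shCTR points.

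Proteasome expression as a whole was close to level between the groups. No member rose and 3 fell: PSMD14, a deubiquitinase of the lid, PSMC5, an ATPase of the base, and PSMG1, an assembly chaperone (limma, Benjamini-Hochberg adjusted p under 0.05 over all 11598 genes). That is 6.52% of 46 genes, where 12.1% of all tested genes were called, 7.14% higher and 4.94% lower in shC8. Without adjustment 8 members (17.4%) had a limma p under 0.05, of which PSMB8 alone was higher, a smaller share than the 29.7% of all tested genes. The median change was 0.02 on the log2(FPKM + 1) scale, against 0.04 for all genes (-0.03 against -0.0075 with median-of-ratios scaling), and the median size of change was 0.090 against 0.137. The sign of the member median rested on single libraries: it was -0.04 without shC8 1 (all genes 0.03) and 0.07 without shC8 2 (all genes 0.05). Changes were under 0.25 in size for 42 of 46 members and for 8616 of 11598 genes in all, and the 4 members beyond this were PSMD14, PSMG1, PSMC5 and PSMD8. The groups of 3 did not overlap for 10 members (21.7%), a smaller share than the 34.8% seen over all tested genes.

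Same-numbered libraries of the groups deviated together across genes, and a fit with the replicate number as a block called more genes. In it 26.6% of all genes were called, and of the 46 members 7 fell and 2 rose. The additional lower calls were the lid gene PSMD8 (log2 change -0.32, limma adjusted p = 0.0714 without and 0.0064 with the replicate block), the chaperone gene PSMD5 (-0.25, 0.0597 and 0.0163), the ATPase gene PSMC1 (-0.24, 0.0924 and 0.0271) and the alpha gene PSMA6 (-0.22, 0.118 and 0.0185). PSMC1 and PSMA6 have 13 and 4 annotated pseudogenes, so their reads may have been divided between copies. The additional higher calls were PSMB8 and PSMB9 of the immunoproteasome.

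Single libraries moved with the members. Summed over the 48 genes, the proteasome took 5310, 5066 and 5104 FPKM in shCTR and 5516, 4649 and 4930 in shC8. Of the 46 tested genes, 31 had their highest value in shC8 1 and 26 had their lowest in shC8 2. The same shares over all tested genes were not counted. Column sums over all genes were also highest in shC8 1 (516634) and lowest in shC8 2 (489055). As a share of its column the proteasome took 1.062%, 1.016% and 1.034% in shCTR, and 1.068%, 0.951% and 1.003% in shC8. By this share shC8 1 was barely above shCTR 1, and shC8 2 and 3 were below all controls. Each column name carries a number of unstated meaning. These numbers are lower in shCTR 1 and 3 and shC8 1, and higher in shCTR 2 and shC8 2 and 3, so shC8 1 and shC8 2 differ in it. With a term for the range of these numbers in the fit, PSMD14, PSMC5 and PSMG1 were again the only members called, all lower. The member median was then 0.048, and that of all genes 0.046. The part of the library differences in the results was not tested further. Without shC8 1 the count of lower members was 4, with PSMD8 added, and without any other single library it was 1, PSMD14. Over all genes 1401 were called with every library, 1346 without shC8 1 and from 477 to 840 without any other single library. The loss of calls with those libraries left out was therefore not particular to the members.

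**Figure D2:**
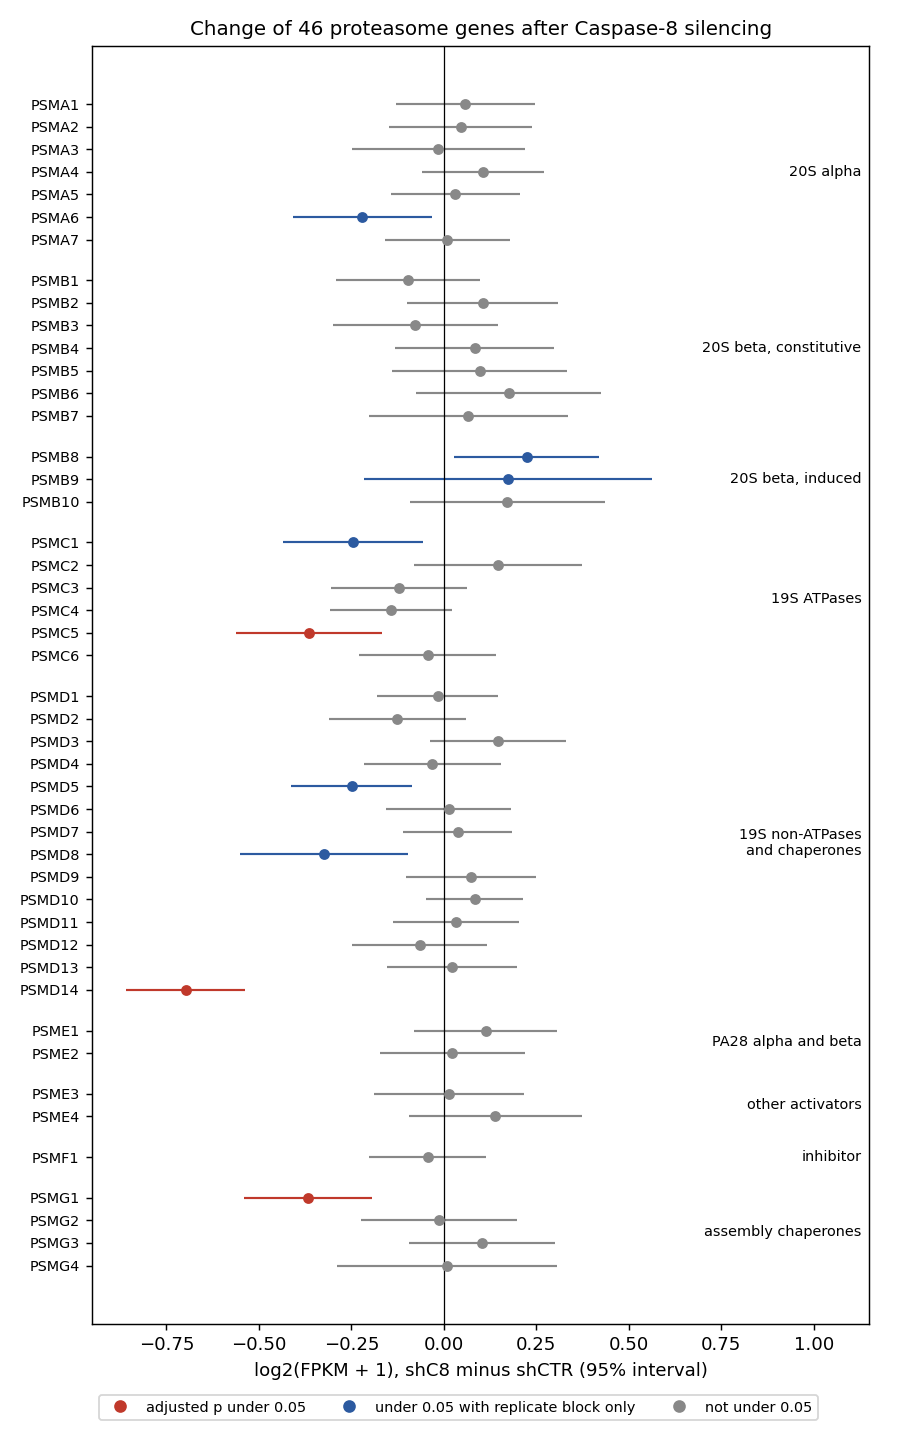
Change in shC8 against shCTR on the log2(FPKM + 1) scale for each of 46 proteasome genes, with 95% intervals from limma without the block, red for an adjusted p under 0.05, blue for genes under 0.05 only with the replicate block, grey for the others. PSMD14 at -0.70 stands farthest from 0, and 42 of 46 points lie within 0.25 of it.

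The 20S core showed no call in its standard form. None of the 7 alpha genes (median change 0.03, range -0.22 to 0.11) and none of the 7 constitutive beta genes (median 0.08, range -0.10 to 0.18) passed the test, and 1 of these 14 (7.14%), PSMA6, had an unadjusted p under 0.05, against 29.7% of all tested genes. The 19S genes were taken by symbol as all PSMC and PSMD genes. That includes assembly chaperones such as PSMD5 and leaves out ADRM1 and SEM1, which are in another list. These genes had a median of -0.04 (0.01 without shC8 2), and their 2 calls, of 20 genes, were both lower (10% called, against 12.1% of all tested genes). For the 6 ATPases the median was -0.13, and 5 of the 6 estimates were below 0, as were 4881 of all 11598 tested genes. As a description, summed 19S RNA was 96.2%, 96.7% and 100.8% of summed constitutive 20S RNA in shCTR, and 86.9%, 91.0% and 91.7% in shC8. The ranges, given with no test, did not overlap, also without PSMD14 and PSMC5 (88.9%, 89.5% and 93.1% against 82.2%, 85.9% and 86.6%). Such sums follow the most abundant genes. PSMD8, kept in both versions, had a mean of 303 FPKM in shCTR and 242 in shC8. The sums therefore do not show a change across the cap genes.

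PSMD14 changed most. It encodes Rpn11, the metalloprotease of the lid that cuts ubiquitin chains from substrates as they enter the core. The gene (ENSG00000115233) spans 161308038 to 161411717 of chromosome 2 (GRCh38, plus strand) and has no annotated pseudogene named after it. Pseudogenes under other names were not searched. RNA5SP108 overlaps PSMD14 on the same strand, and AC009299.2 and AC009299.3 on the opposite one. PSMD14 RNA was 104, 105 and 111 FPKM in the control libraries 1, 2 and 3, against 70.0, 61.6 and 64.5 in the silenced ones. Every shC8 library was below every shCTR library. The mean fell from 107 ± 3.92 to 65.4 ± 4.27 FPKM (SD, n = 3 libraries each), which is 61.4% of the control. On the log2 scale the change was -0.70 (SE 0.0692, 95% interval -0.86 to -0.54, limma adjusted p = 0.0024). It was called with any single library left out (adjusted p from 0.0045 to 0.0174), and within libraries of lower and of higher column number it was -0.61 and -0.73.

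In the particle Rpn11 works as a dimer with Rpn8, encoded by PSMD7, so the pair was set side by side after the values were seen. PSMD7 was listed at 167, 158 and 154 FPKM in shCTR and 170, 163 and 159 in shC8, and its groups overlapped (log2 change 0.04, limma adjusted p = 0.733). PSMD7 has 1 annotated pseudogene named after it, and AC009120.2 overlaps it on the opposite strand. The level of PSMD14 was 62.1%, 66.3% and 72.1% of that of PSMD7 in shCTR, and 41.2%, 37.9% and 40.5% in shC8. This log2 ratio differed by -0.74 between groups. The exact two-sided permutation test gave p = 0.1, the smallest that 3 against 3 libraries allow (0.2 after adjustment over the 2 added ratios).

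The 3′ UTR of PSMD14 (317 bases in GENCODE 29) holds the word GGACAAA, which a previous reading of these same libraries had picked out in the 3′ UTRs of genes that were lower in shC8, so its presence here is no independent evidence. The stretch around it is shown because PSMD14 was the only member with the word among 45 proteasome genes that could be searched, at chr2:161411609-161411637 of GRCh38 on the plus strand. Capitals mark the word.
PSMD14: tacatcaaagtGGACAAAttttgttaaga
The word was found in 10.5% of 10108 searched genes, in 32.1% of those called lower and in 6.41% of those called higher. PSMG1 and PSMC5 lack it, though the PSMC5 3′ UTR has 50 bases in all. A match is a description, and its part in the lower level of PSMD14 was not tested.

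PSMC5, or Rpt6, is an ATPase of the ring that unfolds substrates (ENSG00000087191, chromosome 17, 63827152 to 63832026, plus strand). Its RNA was 73.5, 63.1 and 65.9 FPKM in shCTR and 55.7, 47.8 and 53.1 in shC8. The groups did not overlap, and shCTR 1 and shC8 1 were the highest of their groups. The change was -0.36 (SE 0.0844, limma adjusted p = 0.0343, and 0.0052 with the replicate block). It passed with shC8 1 left out and missed the threshold when any 1 of the other 5 libraries was left out (adjusted p up to 0.103). FTSJ3 overlaps it on the opposite strand, and no source used here says whether counting used the strand.

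PSMG1 encodes PAC1, which with PAC2 (PSMG2) starts the assembly of the alpha ring. It was listed at 126, 124 and 129 FPKM in shCTR and 108, 93.7 and 92.9 in shC8. All shC8 values were lower, with shC8 1 nearest to the controls. The change was -0.37 (SE 0.0745, limma adjusted p = 0.0230), and it too passed with shC8 1 left out and missed when any 1 of the other 5 was left out (adjusted p up to 0.0901). The partner PSMG2 and the other pair, PSMG3 and PSMG4, did not pass. PSMC3IP, outside the proteasome, fell from 34.6, 32.8 and 32.1 to 26.8, 24.8 and 26.3 FPKM (-0.34, limma adjusted p = 0.0158).

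**Figure D3:**
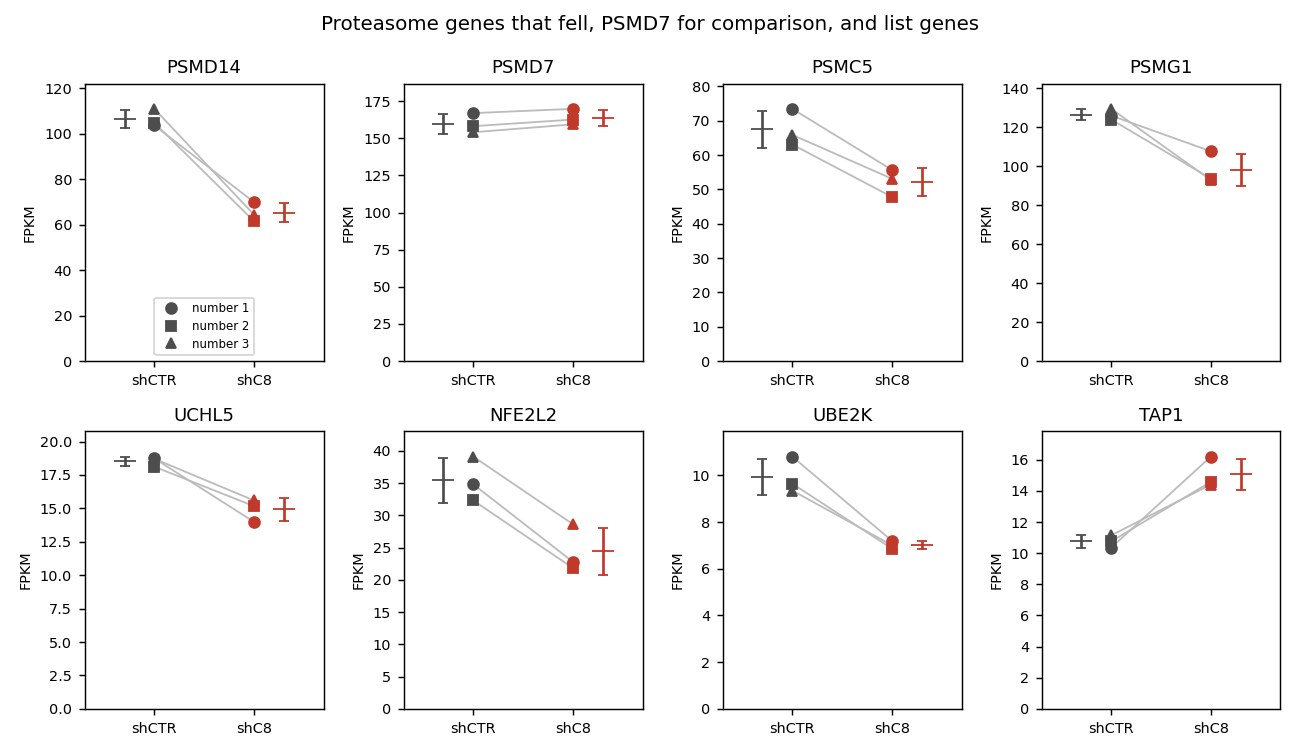
FPKM from 0 upward for PSMD14, PSMD7, PSMC5 and PSMG1 (top) and for UCHL5, NFE2L2, UBE2K and TAP1 (bottom), in shCTR (grey) and shC8 (red), with lines joining same-numbered libraries and bars giving mean and SD of 3 libraries. PSMD7 overlaps between groups, and the other 7 genes do not.

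Of the interferon-inducible set, none of 5 genes passed the test (1 of 5, PSMB8, had an unadjusted p under 0.05, where 29.7% of all tested genes did). All 5 estimates were above 0, with a median of 0.17, though PSME2 was at -0.03 with median-of-ratios scaling. Estimates above 0 were also seen for 10 of the 14 constitutive 20S genes and for 6717 of all 11598 tested genes. PSMB8 encodes the chymotrypsin-like immunoproteasome subunit that takes the place of PSMB5. It was listed at 20.2, 18.8 and 20.8 FPKM in shCTR, against 25.6, 21.1 and 23.7 in shC8. Its groups did not overlap, by a margin of less than 1 FPKM. The change was 0.22 (SE 0.0841, 95% interval 0.03 to 0.42, limma adjusted p = 0.126, and 0.0350 with the replicate block).

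PSMB9, which replaces the caspase-like subunit PSMB6, was the most abundant of the 3 induced beta genes, at 64.2, 55.1 and 44.3 FPKM in shCTR and 73.1, 61.7 and 50.2 in shC8. Library 1 was the highest and library 3 the lowest in both groups, so the groups overlapped while shC8 was higher in 3 of 3 same-numbered pairs. The change was 0.17 (SE 0.167, 95% interval -0.22 to 0.56, limma adjusted p = 0.525), and the replicate block, which removes the differences between numbers, gave 0.0350. The unblocked estimate moved with the library left out, to 0.03 without shCTR 3, 0.04 without shC8 1, 0.30 without shCTR 1 and 0.31 without shC8 3. PSMB10, which replaces the trypsin-like PSMB7, had 20.8, 18.9 and 16.3 FPKM in shCTR and 22.7, 22.4 and 18.4 in shC8 (0.17, SE 0.112, limma adjusted p = 0.346, and 0.0553 with the block).

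The PA28 ring opens the gate of the core. PSME1, its alpha subunit, was listed at 67.7, 62.9 and 57.1 FPKM in shCTR and 71.2, 68.8 and 63.0 in shC8 (0.11, SE 0.0825, limma adjusted p = 0.399). PSME2, its beta subunit, had 63.8, 73.6 and 72.5 against 77.0, 66.1 and 70.2 (0.02, SE 0.0844, limma adjusted p = 0.887), and its groups overlapped, with the highest value in shC8 1 and the lowest in shCTR 1. The subunits form 1 mixed ring, and their mean levels differed by 1.08-fold. PSME2 has 2 annotated pseudogenes. PSME3, a separate nuclear activator that interferon does not induce, was listed at 58.2, 48.4 and 53.5 against 55.3, 49.6 and 56.6 FPKM (0.01, SE 0.0868, limma adjusted p = 0.934).

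The standard catalytic subunits give the reference for the induced ones. PSMB5 was listed at 71.9, 73.7 and 78.5 FPKM in shCTR and 92.2, 70.2 and 78.8 in shC8 (0.10, SE 0.101, limma adjusted p = 0.560). PSMB6 was listed at 207, 188 and 205 against 260, 196 and 225 (0.18, SE 0.107, 0.316), and PSMB7 at 203, 186 and 180 against 235, 174 and 190 (0.07, SE 0.115, 0.741). In all 3 the highest library was shC8 1, and the groups overlapped. Expression of induced against standard subunits was therefore also read as a ratio within each library.

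PSMB8 stood at 28.1%, 25.5% and 26.4% of PSMB5 in shCTR, and 27.8%, 30.0% and 30.1% in shC8. PSMB9 stood at 31.1%, 29.3% and 21.6% of PSMB6, and then at 28.1%, 31.4% and 22.2%. PSMB10 stood at 10.3%, 10.2% and 9.07% of PSMB7, and then at 9.65%, 12.9% and 9.66%. The differences in log2 ratio were 0.14, 0.00 and 0.11, and the exact two-sided permutation test gave p = 0.2, 1 and 0.6 (0.6, 1 and 0.9 adjusted over the 3 ratios), where 0.1 is the smallest possible. Each ratio overlapped between groups, and with 3 libraries a side this test could not have passed 0.05 for any values. U87 cells of both groups held RNA for all 3 induced subunits, at between 9.07% and 31.4% of their standard counterparts.

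**Figure D4:**
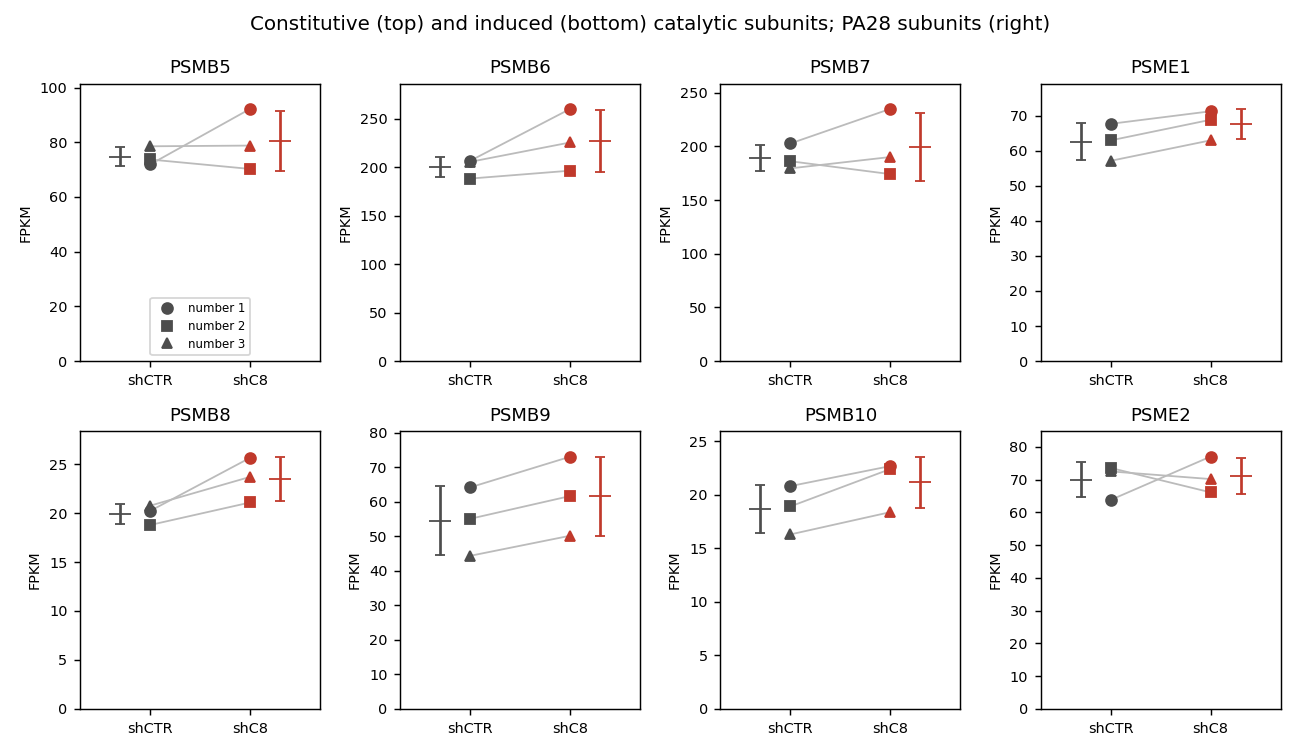
FPKM from 0 upward for the standard catalytic genes PSMB5, PSMB6 and PSMB7 (top) over their induced replacements PSMB8, PSMB9 and PSMB10 (bottom), with PSME1 and PSME2 on the right, in shCTR (grey) and shC8 (red). Lines join same-numbered libraries and bars give mean and SD of 3 libraries; the lines of PSMB9 run in parallel from 3 different starting levels.

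PSMB9 shares its promoter region with TAP1, which encodes part of the peptide transporter that the immunoproteasome feeds. The RefSeq starts of the genes lie 488 bases apart on opposite strands of chromosome 6, and PSMB8 lies next to them. TAP1 was listed at 10.4, 10.8 and 11.1 FPKM in shCTR, against 16.2, 14.6 and 14.4 in shC8. All shC8 libraries were above all shCTR libraries, and TAP1 rose by 0.45 (SE 0.0701, limma adjusted p = 0.0100), in each fit with 1 library left out as well (adjusted p up to 0.0396). TAP1 as a percentage of PSMB9 was 16.1%, 19.5% and 25.1% in shCTR and 22.2%, 23.7% and 28.7% in shC8, a log2 difference of 0.31 (exact two-sided permutation p = 0.3, where 0.1 is the smallest possible, chosen after the values were seen). The ratio was higher in shC8 in 3 of 3 same-numbered pairs, which this test does not use. TAP1 passed and PSMB9 did not without the block, both were called with it, and a difference between their changes was not shown. GENCODE transcripts of PSMB9 overlap PSMB8, TAP1 and an antisense RNA of PSMB8, so reads from the locus may have been divided.

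The promoter windows of the 3 neighbours and of PSMB10 are shown because these genes are usually induced together by interferon. Each is 300 bases from RefSeq on GRCh38.p14, from 250 bases before the start to 50 after it, written on the gene's own strand. PSMB8 and TAP1 each have another RefSeq start, whose window is not shown. The windows are chr6:32843998-32844297 (minus) for PSMB8, chr6:32853942-32854241 (plus) for PSMB9, chr6:32853655-32853954 (minus) for TAP1 and chr16:67936801-67937100 (minus) for PSMB10. Capitals mark every match, on either strand, to the interferon-stimulated response element GAAANNGAAA, the gamma-activated site TTCNNNGAA, the antioxidant response core TGACNNNGC and an NF-kB motif.
PSMB8: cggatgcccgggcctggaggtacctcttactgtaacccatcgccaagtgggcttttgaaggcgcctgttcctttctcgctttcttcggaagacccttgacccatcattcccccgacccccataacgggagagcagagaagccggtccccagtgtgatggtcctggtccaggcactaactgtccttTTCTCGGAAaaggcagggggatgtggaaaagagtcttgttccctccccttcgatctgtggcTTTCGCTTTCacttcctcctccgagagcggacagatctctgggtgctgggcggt
PSMB9: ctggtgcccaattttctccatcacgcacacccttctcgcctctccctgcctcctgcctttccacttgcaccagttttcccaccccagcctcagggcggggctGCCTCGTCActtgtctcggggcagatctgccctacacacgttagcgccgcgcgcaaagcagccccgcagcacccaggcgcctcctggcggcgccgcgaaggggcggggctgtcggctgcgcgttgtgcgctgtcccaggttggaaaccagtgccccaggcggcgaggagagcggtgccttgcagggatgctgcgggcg
TAP1: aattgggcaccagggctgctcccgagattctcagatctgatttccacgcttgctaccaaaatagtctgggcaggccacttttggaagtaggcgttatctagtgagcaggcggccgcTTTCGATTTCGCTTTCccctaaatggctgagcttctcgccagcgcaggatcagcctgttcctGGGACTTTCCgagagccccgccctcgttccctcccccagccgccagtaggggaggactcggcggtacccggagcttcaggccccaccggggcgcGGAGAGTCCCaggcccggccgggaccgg
PSMB10: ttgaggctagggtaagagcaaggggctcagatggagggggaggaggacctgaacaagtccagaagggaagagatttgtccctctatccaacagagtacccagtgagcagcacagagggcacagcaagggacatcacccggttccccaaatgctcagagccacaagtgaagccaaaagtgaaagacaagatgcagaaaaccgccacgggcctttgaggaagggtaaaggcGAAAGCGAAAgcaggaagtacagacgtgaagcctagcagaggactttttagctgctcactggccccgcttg
The capitals in PSMB8 are a gamma-activated site and, nearer the start, an interferon-stimulated element. In TAP1 they are 2 overlapping interferon-stimulated elements and, farther on, 2 NF-kB matches, in PSMB10 an interferon-stimulated element, and in PSMB9 the antioxidant core alone. A match is a description of letters and shows no binding, and a missing match says only that these letters are not in this window.

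Over the family, promoter windows were found for 42 of 48 genes. The interferon-stimulated element was in 7 of them, PSMA4, PSMB4, PSMB8, PSMB10, PSME1, PSME2 and PSMG4, where 4.38% of all 27305 genes have it (3.57% of 35116 windows). So 4 of the 5 induced genes carry it within this window, PSMB9 being the other one. The interferon-stimulated elements marked in the TAP1 window lie between the starts of TAP1 and PSMB9, outside the PSMB9 window. The gamma-activated site was in 8 members, and it is in 9.38% of genes (7.66% of windows). The antioxidant core was in 15 members, among them PSMB9, PSME1, PSME2, PSMC5 and PSMG1, and is in 16.1% of genes (13.3% of windows). The NF-kB motif was in 2, PSMA4 and PSMA8, against 13.3% of genes (11.3% of windows). All these shares are over the 27305 genes with a window, whether or not U87 cells expressed them, while nearly all members were expressed.

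Among 14 genes of antigen processing, 3 rose and none fell: TAP1, B2M and NLRC5 (median of the list 0.11, against 0.04 for all genes). That is 21.4% of the list, where 12.1% of all tested genes were called, 7.14% higher. B2M, the shared light chain of class I molecules, was listed at 2138, 2246 and 1981 FPKM in shCTR and 3061, 3342 and 2792 in shC8, and the groups did not overlap. It rose by 0.53 (SE 0.108, limma adjusted p = 0.0232), but passed only with shC8 1 among the single libraries left out (adjusted p up to 0.0771). NLRC5, the transactivator of class I genes, was listed at 4.83, 4.94 and 4.39 against 6.74, 7.05 and 6.58 FPKM, again without overlap. It rose by 0.45 (SE 0.0731, limma adjusted p = 0.0116) and in each fit with 1 library left out (adjusted p up to 0.0494). The chaperone of peptide loading TAPBP was at 0.24 (adjusted p = 0.189 without and 0.0235 with the replicate block). In the blocked fit these genes, PSMB8 and PSMB9 were all called higher, and PSMB10, PSME1 and PSME2 were not.

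Interferon signalling is the usual inducer of these genes. Of 15 genes of the pathway none rose and 1 fell (6.67% called, against 12.1% of all tested genes). The gene that fell was SOCS1, a feedback inhibitor of JAK kinases, from 3.997, 4.49 and 3.03 to 2.09, 2.49 and 2.56 FPKM (-0.51, SE 0.129, limma adjusted p = 0.0438). SOCS1 passed with shCTR 3 left out and missed when any 1 of the other 5 was left out (adjusted p up to 0.126). IRF1, which drives PSMB9 and TAP1, had 7.05, 7.62 and 5.66 against 6.74, 7.31 and 6.40 (0.01, limma adjusted p = 0.948). The kinase gene TYK2 was at 0.23 and was called higher in the blocked fit alone (limma adjusted p = 0.0235, and 0.0933 without the block).

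Among 24 genes of proteasome assembly, associated proteins and regulation, 2 fell and none rose (8.33% called, against 12.1% of all tested genes, median -0.04). UCHL5, a deubiquitinase that docks on the 19S cap, was listed at 18.7, 18.1 and 18.7 FPKM in shCTR and 14.0, 15.2 and 15.6 in shC8 (-0.30, SE 0.0643, limma adjusted p = 0.0287). NFE2L2, the regulator of the antioxidant response, was listed at 34.8, 32.3 and 39.1 against 22.8, 21.8 and 28.6 FPKM, at 69.0% of the control level (-0.52, SE 0.115, limma adjusted p = 0.0298). Neither gene's groups overlapped. The call of UCHL5 held only without shC8 1 and that of NFE2L2 only without shC8 3 when single libraries were left out (adjusted p up to 0.0869 and 0.0942).

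The other deubiquitinases and docking factors of the cap did not pass. USP14, a deubiquitinase that trims chains at the cap, was at 0.05 (limma adjusted p = 0.629), and ADRM1, the receptor on which UCHL5 docks, at -0.13 (0.253). NFE2L1, which restores proteasome expression after inhibition, was listed at 64.3, 71.9 and 63.3 against 58.2, 67.7 and 64.4 FPKM (-0.07, limma adjusted p = 0.609). DDI2, the protease that activates NFE2L1, was at 0.27, with 3.68, 3.57 and 3.69 against 4.67, 4.33 and 4.77 FPKM (limma adjusted p = 0.0544, and 0.0334 in the blocked fit). That fit also called FBXO7 higher (0.19), and TXNL1 (-0.21), AKIRIN2 (-0.18) and PITHD1 (-0.30) lower. POMP, the maturation factor of the 20S core, was at -0.02 (limma adjusted p = 0.895).

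Upstream of the particle, ubiquitin genes and their enzymes gave 1 rise and 1 fall among 15 genes (13.3% called, against 12.1% of all tested genes, median 0.02). UBE2K, a conjugating enzyme that builds chains read by the proteasome, fell from 10.8, 9.64 and 9.35 to 7.20, 6.86 and 7.01 FPKM (-0.44, SE 0.0738, limma adjusted p = 0.0121), and without shC8 3 it narrowly missed the threshold (adjusted p = 0.0509). UBE2R2, a conjugating enzyme of cullin ligases, was listed at 18.8, 18.6 and 18.6 against 23.0, 21.7 and 22.8 FPKM and rose by 0.26 (SE 0.057, limma adjusted p = 0.0308), a call lost when any 1 of the 6 libraries was left out (adjusted p up to 0.107). UCHL5, NFE2L2 and UBE2K hold the word GGACAAA in their 3′ UTRs and SOCS1 does not. These UTRs have 4101, 480, 4358 and 438 bases, and a long one has more places for a match. The word was in 10.5% of all searched genes and 32.1% of those called lower. As it was picked from genes lower in these same libraries, the matches are no independent evidence.

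The 6 libraries also place PSMB9 beside other genes. Outside the family, the 5 tested genes whose log2(FPKM + 1) followed PSMB9 most closely over the 6 libraries were CANX (Pearson r = 0.991), a chaperone of class I assembly, IL15RA (0.988), LCP1 (0.985), GPX4 (0.984) and CADPS2 (0.983). Within the family PSME1 (0.966), PSMD7 (0.959) and PSMB10 (0.949) came nearest, while PSMB8, its neighbour, had 0.354 and PSME2 -0.04. These correlations were selected from 11598 genes over 6 points that share the library numbers and groups, so they are given without a p. In CANX the order matched that of PSMB9, library 1 above 2 above 3 in both groups, at 291, 281 and 273 against 295, 288 and 276 FPKM.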

How the data were processed

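RNA-seq of 6 U87 libraries was read from 1 table that the authors deposited, with an FPKM value for each gene symbol in each library. The submitters' processing notes name TopHat, Cufflinks, Cuffdiff and hg38 and give no version. Annotation, strand setting and scaling between columns are not given in the sources used here. As counts are lacking, depth is unknown, count models and counting intervals were not used, and a value of 0 can be a failed estimate. Every sample column was used.

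Genes averaging 1 FPKM or more were compared on the log2(FPKM + 1) scale by limma (moderated, trend on the mean, two-sided) between the 3 shCTR and 3 shC8 libraries, and p-values were adjusted by Benjamini-Hochberg over all 11598 genes. Changes on this scale understate those of low genes. Ratios within a library were compared with an exact permutation test. The members, lists, rules and tests were chosen with earlier results of these data known. Named in full were the 5 inducible genes, their counterparts, members that passed, the highest and lowest member of each group, and up to 4 passing genes of each other list; genes named beside a count or called only with the replicate block were chosen after their values were seen. 2 list symbols, ECPAS and SEM1, were matched through older symbols.

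Same-numbered libraries deviated together from their group means, with correlations across genes of 0.397, 0.266 and 0.291. The replicate numbers were therefore taken as pairs in the fit with the replicate block, on the evidence of the data, as no label states a pairing. The main test and the permutation tests did not use these pairs, and calls named without the block ignore them. Alternatives were quantile normalization, the replicate block, a pseudocount of 0.1, median-of-ratios scaling, a filter at 5 FPKM or none, no trend, a term for the range of column numbers, and each library left out. Promoters came from a RefSeq table, and 3′ UTRs of principal coding transcripts from GENCODE 29. On simulated data with 11598 genes in a comparison of shC8 against shCTR, 59% of 100 genes changed by 0.5 and 94% of 100 changed by 1 were recovered, and 3.16% of calls were false. Noise there was independent between genes and libraries, unlike in these data, and only genes of higher level were changed. These rates may therefore not hold here. R 4.3.3 with limma 3.58.1 and Python 3.11.15 with pandas 2.3.3 were used.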

Additional observations from a re-analysis of the deposited data

How the results depend on the processing

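PSMD14 passed under every alternative run, with changes from -0.75 to -0.66 and adjusted p up to 0.0174. The count of lower proteasome genes was 3, and 5 with quantile normalization (PSMD5 and PSMD8 added), 6 with median-of-ratios scaling (PSMC1 too), 7 with the replicate block, and from 1 to 4 with single libraries left out. Without a filter it was 2, since PSMC5 had an adjusted p of 0.0636. Over all genes, lower calls numbered 573 in the main fit, 731 with quantile normalization, 820 with median-of-ratios scaling and 1224 with the replicate block. With single libraries left out they ranged from 216 to 647. Higher proteasome genes numbered 0 in every fit but the replicate block, with 2, PSMB8 at 0.22 and PSMB9 at 0.17, and it ended no call. Over all genes, 59.1% of 1401 calls were higher, and 43.1% of 1441 with median-of-ratios scaling and 49.4% of 1446 with quantile normalization, while the replicate block gave 3086 calls and no filter 979.

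Estimates near 0 changed sign, and others kept it but moved in size, such as PSMB9 (0.03 to 0.31) and PSMB10 (0.08 to 0.27) with single libraries left out. PSME2 was -0.0272 and PSME3 -0.0360 with median-of-ratios scaling. With single libraries left out PSME2 ranged from -0.0411 to 0.0735, PSME3 from -0.0533 to 0.0775, PSMB5 from -0.0049 to 0.19 and PSMB7 from -0.0562 to 0.16. The log2 ratio of PSMB9 to PSMB6 ranged from -0.16 to 0.14 and that of PSMB10 to PSMB7 from -0.0233 to 0.18. The cause was not tested. Without a filter the calls of NFE2L2, B2M and SOCS1 were lost too (adjusted p of 0.0669, 0.154 and 0.0949). Depth is unknown, and 3 libraries a group limit the precision.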
